A study of Mus musculus with 6 samples.

Results

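The genes described here are the 4 receptor genes Il17ra, Il17rb, Il17rc and Il17rd, the adaptor gene Traf3ip2, and the TRAF genes Traf1, Traf2, Traf3, Traf5 and Traf6. They were chosen by symbol, with no minimum level, from a table of 18019 genes, and all 10 were found in it. Its unit is FPKM, the number of fragments divided by gene length in kilobases and by the library's total. RNA was sequenced from RAW264.7, a mouse macrophage cell line, in 6 libraries. All of them were induced with lipopolysaccharide (LPS), a component of bacterial outer membranes that activates macrophages. The control group (n = 3) had no further treatment, and the other group (n = 3) received TPPU, which inhibits soluble epoxide hydrolase, an enzyme of epoxy fatty acid breakdown. No dose or time is stated for LPS or TPPU in the labels used here. The labels name no separate batches and do not say that the libraries came from separate cultures, so the spread behind each p-value may be technical. There is no library without LPS, so these values say nothing of how LPS itself moves the genes.

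Interleukin-17 (IL-17) cytokines act through paired receptors that share the chain IL-17RA. IL-17A and IL-17F use IL-17RA with IL-17RC, and IL-25 uses IL-17RA with IL-17RB. The bound receptor recruits Act1, the product of Traf3ip2, which is an adaptor and a ubiquitin ligase. Act1 engages TRAF6, which leads through the kinase TAK1 to NF-κB and MAP kinases, and with TRAF2 and TRAF5 it stabilises target mRNAs. TRAF6 also carries signals from Toll-like receptors, the route by which LPS acts, so the TRAF genes are not specific to IL-17. The series title names IL-17 and NF-κB signalling, and the comparison asks whether genes at the entry of that pathway differ between TPPU and control.

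Of the 4 receptor genes, Il17ra and Il17rc were expressed in every library and Il17rb and Il17rd were at or near 0. Promoter sequence is shown for the receptor genes Il17rc, Il17rb and Il17rd and for Traf1 and Traf3. The latter are the TRAF genes with the highest and the lowest mean level among the 5. The sequences are the 250 bases before the RefSeq start of each gene in build GRCm38.p6, on the gene's own strand, in lower case with each CG dinucleotide in capitals. Of the 10 genes 8 had an entry in the RefSeq table, and Il17ra and Traf3ip2 had none. The windows are Il17rc at chr6:113471205-113471454 (plus strand), Il17rb at chr14:30008897-30009146 (minus strand), Il17rd at chr14:27038751-27039000 (plus strand), Traf1 at chr2:34961773-34962022 (minus strand) and Traf3 at chr12:111166120-111166369 (plus strand).
Il17rc: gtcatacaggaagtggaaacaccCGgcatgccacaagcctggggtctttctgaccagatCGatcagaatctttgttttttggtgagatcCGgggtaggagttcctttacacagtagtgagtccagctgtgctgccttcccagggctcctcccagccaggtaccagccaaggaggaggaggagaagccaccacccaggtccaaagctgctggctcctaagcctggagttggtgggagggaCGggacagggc
Il17rb: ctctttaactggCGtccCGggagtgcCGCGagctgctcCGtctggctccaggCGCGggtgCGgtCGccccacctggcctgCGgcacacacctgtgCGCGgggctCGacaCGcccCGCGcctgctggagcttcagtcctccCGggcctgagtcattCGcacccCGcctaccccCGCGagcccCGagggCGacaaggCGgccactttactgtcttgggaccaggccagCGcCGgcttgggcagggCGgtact
Il17rd: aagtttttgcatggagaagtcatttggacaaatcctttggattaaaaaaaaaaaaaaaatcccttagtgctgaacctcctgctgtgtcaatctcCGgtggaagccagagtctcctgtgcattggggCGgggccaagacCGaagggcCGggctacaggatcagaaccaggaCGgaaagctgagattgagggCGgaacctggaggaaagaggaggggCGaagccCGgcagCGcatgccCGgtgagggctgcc
Traf1: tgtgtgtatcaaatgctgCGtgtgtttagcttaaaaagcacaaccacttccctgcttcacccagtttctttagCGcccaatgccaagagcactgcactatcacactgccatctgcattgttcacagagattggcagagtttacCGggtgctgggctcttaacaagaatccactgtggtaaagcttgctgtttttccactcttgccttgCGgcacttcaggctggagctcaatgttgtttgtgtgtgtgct
Traf3: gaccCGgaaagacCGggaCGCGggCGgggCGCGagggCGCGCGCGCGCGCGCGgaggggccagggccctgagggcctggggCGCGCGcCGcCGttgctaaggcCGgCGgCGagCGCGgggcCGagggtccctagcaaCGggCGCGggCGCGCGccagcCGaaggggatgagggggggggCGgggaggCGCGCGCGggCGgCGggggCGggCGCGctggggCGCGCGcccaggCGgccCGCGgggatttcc
The expressed receptor gene Il17rc had 4 CG dinucleotides in this window, fewer than Il17rb with 27 and Il17rd with 10. The other expressed receptor gene, Il17ra, could not be compared. Traf1 had 4 and Traf3 had 49, and the median over 32851 windows of the same length was 6. The AP-1 motif TGANTCA, searched on both strands, occurred once, in Il17rb, and in 6.75% of all windows. The NF-κB consensus occurred once among the 8 genes, as GGGGATTTCC at the end of the Traf3 window, and in 3.9% of all windows. A match describes the letters and is not evidence that a factor binds.

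Il17ra encodes the receptor chain that the family shares, on chromosome 6 (120463247 to 120487559, mm10, plus strand). It measured 8.55, 8.56 and 10.1 FPKM in control replicates 1, 2 and 3, and 8.21, 7.43 and 6.64 FPKM in TPPU replicates 1, 2 and 3. The TPPU libraries all measured less than any control, by a gap smaller than the range within either group. The means were 9.08 ± 0.91 (SD, n = 3) in control and 7.43 ± 0.78 (SD, n = 3) with TPPU. On the log2(FPKM + 1) scale the change was -0.26 (SE 0.12, 95% interval -0.53 to 0.01, limma adjusted p = 0.627), which did not pass the threshold of 0.05. Among all 9728 genes tested, 9.35% had a smaller unadjusted p. Without control replicate 3, a library unlike the others, the change was -0.19.

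Il17rc encodes the partner chain for IL-17A and IL-17F and lies on the same chromosome (113471427 to 113483140, plus strand). It measured 5.33, 4.81 and 4.98 FPKM in the controls and 4.5, 4.76 and 3.81 FPKM with TPPU. The groups again did not overlap, but TPPU replicate 2 lay within 0.05 FPKM of control replicate 2. The change was -0.18 (SE 0.12, 95% interval -0.44 to 0.09, limma adjusted p = 0.718). Groups that did not overlap, with TPPU below, were seen in 2 of the 8 genes that passed the filter and in 7.88% of all tested genes. The opposite order, with TPPU above, was seen in 0 of the 8 and in 7.48% of all genes. The former were Il17ra and Il17rc, and the count stayed at 2 without control replicate 3, where 12.4% of all genes had this order. The ratio of Il17ra to Il17rc within a library was 1.81 ± 0.22 in control and 1.71 ± 0.14 with TPPU (n = 3 each, exact permutation p = 0.5, two-sided, and 0.5 adjusted over 6 ratios).

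Il17rb, the receptor gene for IL-25 signalling on chromosome 14 (29996135 to 30008896, minus strand), was listed at 0.0152, 0 and 0 FPKM in the controls. With TPPU it was listed at 0.0593, 0.0473 and 0 FPKM. At low levels FPKM moves in steps of 1 fragment, and these values correspond to 1, 0 and 0 fragments in control and to 4, 4 and 0 with TPPU. Summed over 3 libraries, 1 fragment (exact Poisson 95% interval 0.0253 to 5.57) and 8 fragments (3.45 to 15.8) have intervals that overlap. Such intervals cover counting error only, and their overlap is not a test of a difference. The exact permutation p was 0.4, where 3 libraries against 3 cannot give less than 0.1.

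Il17rd, known as a brake on fibroblast growth factor signalling and as a member of the IL-17 receptor family by sequence, lies on the same chromosome (27038941 to 27107286, plus strand). It held 0, 0 and 1 fragments in the controls and 0, 4 and 1 with TPPU (exact permutation p = 0.7, n = 3 each). Both genes were therefore too low to compare at this depth. The receptor gene Il17re, which is in the same family and borders Il17rc, held 8 fragments over the 3 controls and 3 over the TPPU libraries. The 5 ligand genes looked up did not include Il17a. Of the 5, Il17c, Il17d and Il17f were in the table, and their highest value in any library was 0.494 FPKM. None passed the filter of at least 1 FPKM in 3 libraries.

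**Figure D1:**
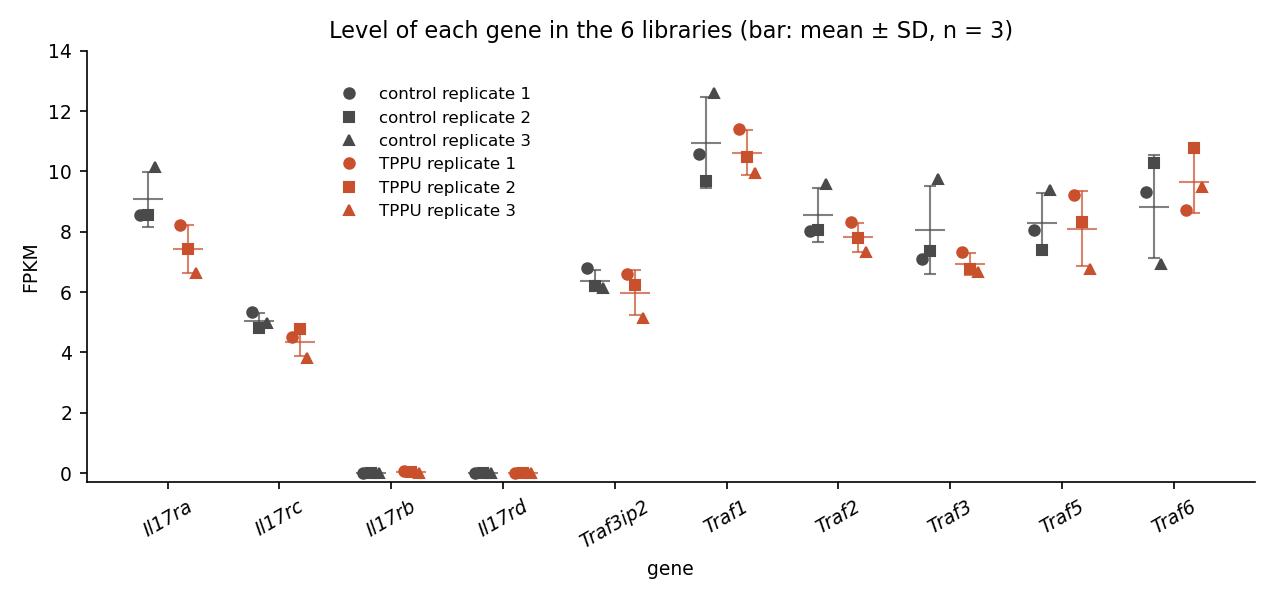
FPKM (vertical axis, from 0) of each of the 10 genes in the 3 control and 3 TPPU libraries, with the mean and SD of each group. Il17rb and Il17rd lie at or near 0, the other 8 genes lie between 3.81 and 12.6 FPKM, and control replicate 3 is the highest library for 5 of those 8 and the lowest for Traf6.

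Traf3ip2, which encodes the adaptor Act1, lies on chromosome 10 (39612934 to 39655307, plus strand). It measured 6.79, 6.22 and 6.13 FPKM in control and 6.58, 6.22 and 5.15 FPKM with TPPU. The groups overlapped, and TPPU replicate 3 alone lay below the controls. The change was -0.08 (SE 0.12, 95% interval -0.36 to 0.19, limma adjusted p = 0.862). Without TPPU replicate 3 it was 0.005. The ratio of Il17ra to Traf3ip2 was 1.43 ± 0.2 in control and 1.24 ± 0.05 with TPPU (n = 3 each, exact permutation p = 0.2, and 0.4 adjusted over 6 ratios).

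Traf6 encodes the ubiquitin ligase that Act1 engages and that also serves Toll-like and interleukin-1 receptors (chromosome 2, 101678429 to 101701669, plus strand). It measured 9.31, 10.3 and 6.93 FPKM in control and 8.71, 10.8 and 9.48 FPKM with TPPU. Control replicate 3 was the lowest of the 6 libraries, and the other controls lay among the TPPU values. Traf6 was the sole gene of the 8 with a positive change, 0.13 (SE 0.15, 95% interval -0.22 to 0.47, limma adjusted p = 0.833). Without control replicate 3 it was -0.02.

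Traf2 and Traf5 encode the TRAFs that act with Act1 on mRNA stability. Traf2 (chromosome 2, 25517982 to 25546940, minus strand) measured 8.01, 8.06 and 9.6 FPKM in control and 8.31, 7.81 and 7.34 FPKM with TPPU. Its change was -0.11 (SE 0.11, limma adjusted p = 0.794), or -0.04 without control replicate 3. The groups overlapped. Traf5 (chromosome 1, 191997205 to 192092559, minus strand) measured 8.06, 7.41 and 9.37 FPKM in control and 9.22, 8.32 and 6.76 FPKM with TPPU. Its TPPU values spanned most of the range of the controls, with a change of -0.03 (SE 0.14, limma adjusted p = 0.956).

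Traf3 encodes a TRAF that binds IL-17RA and limits its signalling, and that holds the kinase NIK of the non-canonical NF-κB pathway in check (chromosome 12, 111166370 to 111267153, plus strand). It measured 7.11, 7.36 and 9.75 FPKM in control and 7.34, 6.75 and 6.67 FPKM with TPPU. Control replicate 3 stood far above the rest, and control replicates 1 and 2 differed from TPPU replicate 1 by less than 0.5 FPKM. The change of -0.18 (SE 0.13, 95% interval -0.49 to 0.12, limma adjusted p = 0.725) was -0.06 without control replicate 3.

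Traf1, the TRAF that lacks a RING domain and whose transcription NF-κB is known to induce, lies on chromosome 2 (34941750 to 34961772, minus strand). It measured 10.6, 9.68 and 12.6 FPKM in control and 11.4, 10.5 and 9.94 FPKM with TPPU. The groups overlapped throughout, with a change of -0.04 (SE 0.12, 95% interval -0.31 to 0.24, limma adjusted p = 0.941), which was 0.06 without control replicate 3.

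Il17rb and Il17rd were left out of the limma fit, and their exact permutation test could not give a p under 0.1. Of the 8 genes in the limma fit none passed in either direction. The same fit called 0 of 9728 genes higher (0.0%) and 0 lower (0.0%) by limma with Benjamini-Hochberg adjustment. At an unadjusted p under 0.05 there were 408 higher genes (4.19%) and 360 lower genes (3.7%), with 0 of the 8 tested genes here among them. The change was negative in 7 of the 8 and in 45.6% of all tested genes, and its median was -0.1 over the 8 and 0.02 over all genes. Without control replicate 3 the median was -0.05 over the 8 and 0.016 over all genes, and 6 of the 8 changes were negative. The 95% intervals of the 8 genes lay between -0.53 and 0.47 in all, and each included 0. The interval of a single gene was narrower than these bounds, such as -0.37 to 0.14 for Traf2. The intervals are not adjusted for the number of genes tested.

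**Figure D2:**
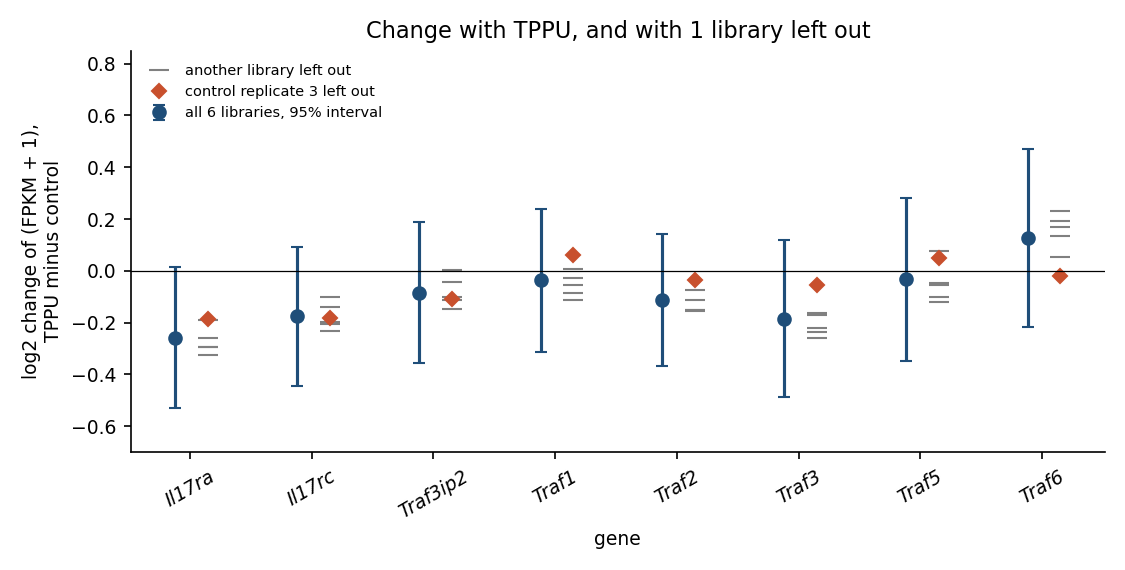
Log2 change of (FPKM + 1), TPPU minus control, for the 8 genes tested, with the limma 95% interval (circles and bars), beside the value with 1 library left out (dashes, and diamonds for control replicate 3). Every interval includes 0, and without control replicate 3 Traf1, Traf5 and Traf6 change sign.

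The libraries differed among themselves more than counting error allows for most of these genes. Il17ra rested on 1222 to 1677 estimated fragments per library, for a counting error of about 2.64%, while its FPKM varied by 10.1% (SD over mean) among the controls and by 10.5% among the TPPU libraries. Traf6 had a counting error of 2.59% and varied by 19.4% among the controls. For Il17rc, with 216 to 290 fragments, the counting error was 6.28% the controls varied by 5.34% and the TPPU libraries by 11.3%. Counting error was thus as large as the spread for Il17rc in control, but not with TPPU, nor for Il17ra or Traf6.

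Control replicate 3 was the library least like the others. It correlated with them at 0.958 to 0.977 over the tested genes, and every other pair reached at least 0.982. Across genes, which are not replicates, its deviation from each gene's mean rose with the GC content of the transcript (Spearman's rho 0.61). Mitochondrially encoded transcripts held 0.371% of its FPKM, 0.914% of that of TPPU replicate 1 and 1.46% to 1.85% elsewhere. TPPU replicate 3 had a rho of -0.42 and was the lowest library for 6 of the 8 genes. Control replicate 2 had a rho of -0.45 and was the lowest for 1. By gene, control replicate 3 differed from the mean of the other controls by 0.39 on the log2 scale for Traf3, 0.29 for Traf1, 0.25 for Traf5, 0.23 for Traf2 and 0.22 for Il17ra, by -0.02 for Il17rc and -0.07 for Traf3ip2, and by -0.44 for Traf6. The longest transcript of Traf6 had 45.7% GC, against 51.1% to 53.9% for Traf2, Il17ra, Traf3 and Traf1. Traf5, which was high in control replicate 3, had the lowest GC content of the 8 at 40.8%. Il17rc with 62% and Traf3ip2 with 51.7% deviated little there. Whether GC content accounts for the deviations of these 8 genes was not tested. With a trend on GC content removed from each library, the changes were -0.24 for Il17ra, -0.14 for Il17rc, -0.08 for Traf3ip2, -0.01 for Traf1, -0.11 for Traf2, -0.16 for Traf3 and 0.06 for Traf6. For Traf5 it was -0.14 (SE 0.22), against -0.03 without that step. The part of RNA quality in the individual changes was not tested further.

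**Figure D3:**
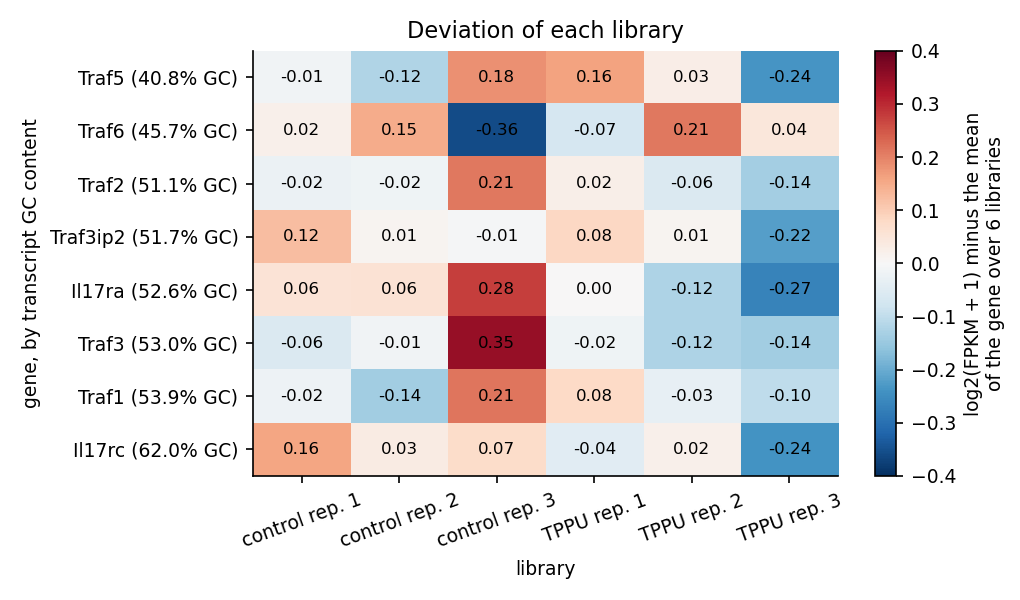
Log2(FPKM + 1) of each library minus the gene's mean over 6 libraries, for the 8 genes tested, ordered by the GC content of the longest transcript. Control replicate 3 is highest for Il17ra, Traf1, Traf2, Traf3 and Traf5 and lowest for Traf6, and TPPU replicate 3 is lowest for 6 of the 8.

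In both groups Traf1 had the highest mean level of the 10 genes. In control, Il17ra, Traf6, Traf2, Traf5 and Traf3 followed with means from 9.08 down to 8.07 FPKM, and neighbours in that order had overlapping ranges. Traf3ip2 and Il17rc came next, each with a range apart from its neighbour's. With TPPU the order was Traf1, Traf6, Traf5, Traf2, Il17ra, Traf3, Traf3ip2 and Il17rc, and again Traf3ip2 and Il17rc were those with ranges apart from the gene above. These positions depend on the gene length used. FPKM values of genes with several transcripts came out as whole fragments for 95.2% to 96.4% of low values when the length was that of all exons merged, within 0.1 of a fragment, against 21.7% to 25.8% with the longest transcript and 20% by chance. The merged exons of Traf1 span 8819 bases and its longest transcript 3436, and those of Traf5 span 4566 and 2084 bases. Divided by the longest transcript, a scale chosen after the data were seen, the control means were 28.1 ± 3.86 for Traf1, 18.1 ± 2.19 for Traf5, 11.3 ± 2.19 for Traf6, 10.6 ± 1.12 for Traf2, 10.2 ± 1.02 for Il17ra and 8.4 ± 1.52 for Traf3 (SD, n = 3). In control Traf5 thereby moved from place 5 to place 2, and Il17ra from place 2 to place 5. Traf3ip2, at 8.21 ± 0.46 in control on this scale, was no longer apart from Traf3. With TPPU its mean of 7.695 ± 0.96 lay above the 7.21 ± 0.38 of Traf3. A change of length acts on both groups alike, but it does not fully cancel on the log2(FPKM + 1) scale.

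The 3 genes whose profile over the 6 libraries was most like that of Il17ra, among 6361 genes with a mean of at least 5 FPKM, were Apba3, Snx8 and Pag1. Their Pearson's r with Il17ra was 0.994, 0.994 and 0.99 on the log2(FPKM + 1) scale. All 3 were highest in control replicate 3 and lowest in TPPU replicate 3, as was Il17ra. With 6 libraries and this many genes such values are a description of the libraries.

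Other genes of the receptor and TRAF families also had overlapping groups. Traf4, whose product competes with TRAF6 for Act1, measured 4.46, 5.6 and 4.82 FPKM in control and 5.87, 4.7 and 3.73 FPKM with TPPU. Traf7 had the highest FPKM of the TRAF genes measured here, at 20.3, 20.6 and 23.2 FPKM in control and 23.8, 22.8 and 20.9 FPKM with TPPU. Traip and Traf3ip1, further genes of this list, measured 1.16 ± 0.13 and 3.1 ± 1.14 FPKM in control and 1.35 ± 0.23 and 2.83 ± 0.78 FPKM with TPPU. Of 5 tested genes in this list, 0 passed in either direction, with a median change of -0.02, and 0.1 without control replicate 3.

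Further along the pathway, no gene of any list passed over all genes. Sample quality weights gave control replicate 3 the least weight (0.191) and control replicate 1 the most (3.84). With them, 89 of all 9728 tested genes passed as higher and 80 as lower. In the pathway lists, Tnfaip3, Peli1, Fos, Jun, Ccl7 and Csf2 passed as lower and Mmp9 as higher (limma adjusted p = 0.0113 to 0.0491). As a background for the counts that follow, 45.6% of all tested genes had a negative change, 7.88% had all TPPU values below all controls and 7.48% had all above. These shares are of all 6 libraries. Without control replicate 3 the median change over all tested genes was 0.016. Of 14 tested receptors and adaptors that recruit TRAFs, 8 had a negative change (median -0.05), or 7 with a median of -0.02 without control replicate 3. In 1, Irak2, the TPPU libraries were all below the controls, at 58.7 ± 6.14 in control and 50.6 ± 1.27 FPKM with TPPU. Irak2 encodes a kinase that passes Toll-like receptor signals to TRAF6. Ticam1, the adaptor gene TRIF, measured 29 ± 5.7 and 23.5 ± 2.78 FPKM, and Irak1, another kinase of that route, 13.7 ± 0.89 and 15.6 ± 1.38 FPKM. Tnfrsf1b, a TNF receptor that binds TRAF2, was at 719 ± 110 and 622 ± 48.5 FPKM. These 3 genes overlapped between the groups.

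Of 17 TRAF partners and ubiquitin enzymes 11 had a negative change (median -0.05), and 3 had all TPPU values lower. Peli1, a ubiquitin ligase, measured 16.9, 18.4 and 13.1 FPKM in control and 13.1, 12.8 and 12.8 FPKM with TPPU, a log2 change of -0.29 (limma SE 0.13, adjusted p = 0.627). The groups of Peli1 nearly touched, at 13.103 FPKM in control replicate 3 and 13.0887 FPKM in TPPU replicate 1. Tnfaip3, which encodes the ubiquitin-editing brake A20, measured 13.8, 13.6 and 13.8 FPKM in control and 8.78, 9.24 and 9.63 FPKM with TPPU, a log2 change of -0.53 (limma SE 0.09, adjusted p = 0.263). It was the 1 gene of this list at an unadjusted p under 0.05. Tradd, which bridges the TNF receptor to TRAF2, measured 7.08 ± 0.75 and 5.8 ± 0.34 FPKM. Tifa, an activator of TRAF6, was the 1 gene of the list with all TPPU values higher, at 3.36 ± 0.57 and 4.22 ± 0.49 FPKM. Its groups nearly touched, at 3.71 FPKM in TPPU replicate 1 and 3.69 FPKM in control replicates 1 and 2.

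Of 21 tested kinases downstream of TRAFs, 12 had a positive and 9 a negative change, with a median of 0.004, and without control replicate 3 it was 6 and 15, with a median of -0.03. Map3k7, which encodes TAK1, measured 16.3 ± 1.18 in control and 16.4 ± 0.51 FPKM with TPPU. Tbk1, a kinase that phosphorylates Act1, measured 33.3 ± 1.01 and 30.2 ± 1.23 FPKM, with all TPPU values lower (log2 change -0.13, SE 0.09, limma adjusted p = 0.71), the 1 kinase gene of the list whose groups did not overlap. Ikbkb, which encodes a kinase of IκB, measured 5.37 ± 0.62 and 4.55 ± 0.39 FPKM, and Map3k1 7.56 ± 0.43 and 6.79 ± 0.38 FPKM.

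Among the pathway lists plotted here, the transcription and mRNA stability factors and the target genes of IL-17 had the most negative medians. Without control replicate 3 and TPPU replicate 1 the median of the factors was -0.087, near the -0.085 of the 8 tested receptor and TRAF genes and of the receptors and adaptors that recruit TRAFs, and that of the targets was -0.2. Of 17 factors 12 had a negative change (median -0.15), 6 had all TPPU values below all controls and 1 had all above. Cebpb, a transcription factor of IL-17 target genes, measured 43.7, 49.6 and 57.6 FPKM in control and 32.9, 29.1 and 38.7 FPKM with TPPU, a log2 change of -0.57 (limma SE 0.14, adjusted p = 0.397). Fos, an AP-1 subunit gene, measured 6.39, 4.57 and 6.74 FPKM in control and 2.99, 2.52 and 3.58 FPKM with TPPU, a log2 change of -0.77 (limma SE 0.16, adjusted p = 0.394). Nfkbiz, which encodes the IL-17-induced co-activator IκBζ, measured 103 ± 10.2 and 79.7 ± 4.65 FPKM. Zfp36, which encodes an mRNA decay protein, measured 134 ± 37.1 and 76.7 ± 5.42 FPKM. Of 13 tested target genes 9 had a negative change (median -0.23), or 12 with a median of -0.37 without control replicate 3. At an unadjusted p under 0.05, 6 of the 17 factors and 6 of the 13 targets were lower, against 3.7% of all tested genes, and 1 target was higher. Both lists were chosen with earlier results of these data known, so these counts only describe them. The chemokine gene Ccl7 measured 8.12, 5.66 and 7.12 FPKM in control and 3.36, 3.07 and 4.53 FPKM with TPPU, a log2 change of -0.78 (limma SE 0.16, adjusted p = 0.394). The growth factor gene Csf2 measured 26.7, 29.5 and 27.9 FPKM in control and 14.1, 19.6 and 20.8 FPKM with TPPU. Ccl2 measured 75.5 ± 9.43 and 52.6 ± 6.49 FPKM, and the protease gene Mmp9, the higher one, 36.7 ± 4.8 and 51.8 ± 5.52 FPKM. In these 4 genes the groups did not overlap, and none passed the threshold. These targets also respond to LPS, so their values do not measure IL-17 signalling alone, and no difference between the lists was tested.

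**Figure D4:**
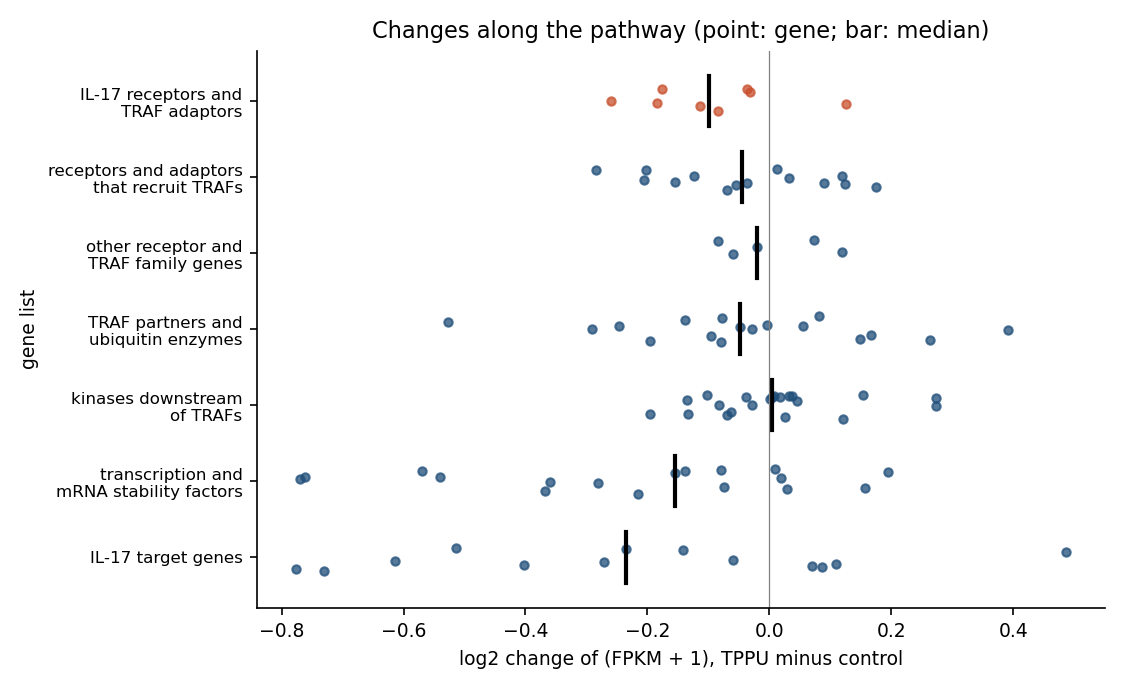
Log2 change of (FPKM + 1), TPPU minus control, for the tested genes of 7 lists (points, spread vertically for legibility) with the list's median (bar). The medians of the lists plotted run from -0.23 for IL-17 target genes to 0.004 for kinases downstream of TRAFs, with the IL-17 receptors and TRAF adaptors at -0.1.

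Markers of the cell line and of other cells were read in the same libraries. Macrophage markers were present, with 9 of 10 tested and summed levels of 1943 to 2320 FPKM in control and 2057 to 2174 FPKM with TPPU. Of 8 T cell markers 4 were in the table, and Lck, at 3.67 to 4.38 FPKM, made up most of their sum of 3.94 to 4.65 FPKM in control and 3.79 to 4.61 FPKM with TPPU. Epithelial markers summed to at most 1.03 FPKM and fibroblast markers, Lum the sole one tested (2.36 ± 0.75 and 2 ± 0.76 FPKM), to 3.58 to 8.1 FPKM in control and 3.03 to 3.85 FPKM with TPPU, and their part in the results was not tested. In bulk samples, fewer cells of a type and less RNA per cell cannot be told apart. Ephx2, which encodes the enzyme that TPPU inhibits, was low, at 0.648 ± 0.209 in control and 1.5 ± 1.07 FPKM with TPPU. The labels of the TPPU samples also cite a column of another table under an sh-LIS1 name. Pafah1b1, the gene of LIS1, overlapped between the groups, at 10.8 ± 3.92 in control and 12.8 ± 1.87 FPKM with TPPU. Its lowest value was 6.52 FPKM in control replicate 3, against 11.7 and 14.2 FPKM in control replicates 1 and 2.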

How the data were processed

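Per the labels' protocols, polyadenylated RNA was enriched with oligo(dT) beads and libraries kept the strand through dUTP. The authors deposited 1 table of FPKM, a unit taken from the table's name and values. Per the submitters' processing notes the genome build was mm10. For the aligner, counting program and annotation, nothing is given in the sources used here. Each column carries the library name of 1 sample's description. The 9728 of 18019 genes that reached 1 FPKM in 3 or more libraries were tested on log2(FPKM + 1), which understates changes of low genes. The fit used limma 3.58.1 (R 4.3.3) with group as the sole covariate and a trend of variance on mean. P-values are two-sided and were adjusted over all tested genes by the Benjamini-Hochberg method, with calls at 0.05. Il17rb and Il17rd, under that level, were given an exact permutation test. The scripts were tested on simulated data. In that simulation the spread was independent between genes and libraries, with no library deviating as a whole.

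Depth was estimated from the FPKM step of 1 fragment, using GENCODE M21 exon lengths on mm10, at 17.7 to 22.8 M (mega) fragments per library, so that 3 fragments in 1 kb are worth 0.132 to 0.169 FPKM. No count model was applied. The 10 genes and the other lists were chosen with earlier results of these data known. The genes named outside the 10 were those of each list with the smallest unadjusted p, up to 4, with Ephx2, Pafah1b1 and the genes most correlated with Il17ra. Il17c, Il17d, Il17f, Il17re, Map3k7 and Jun were named besides, after their values were seen. For 1 gene under that rule no value is reported here. The effect of alternatives is given in the closing section. Versions were scipy 1.17.1, pandas 2.3.3, numpy 2.4.6 and matplotlib 3.10.9 under Python 3.11.15.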

Additional observations from a re-analysis of the deposited data

How the results depend on the processing

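None of the 8 tested genes passed the threshold under any of 19 alternatives (7 genes at a mean of at least 5 FPKM), where the smallest adjusted p of any was 0.207 (limma). The changes of Il17ra (-0.33 to -0.19), Il17rc (-0.23 to -0.1), Traf2 (-0.15 to -0.04) and Traf3 (-0.26 to -0.06) stayed negative in all of them, except that Il17rc has no value at that mean. The sign turned without control replicate 3 for Traf1 (0.061), Traf5 (0.05) and Traf6 (-0.021), and without TPPU replicate 3 for Traf1 (0.006), Traf5 (0.078) and Traf3ip2 (0.005). The other ends of their ranges with libraries left out were -0.114 for Traf1, -0.121 for Traf5, 0.232 for Traf6 and -0.17 for Traf3ip2. It also turned for Traf1 (0.012) without control replicate 3 and TPPU replicate 1 together, an alternative added after the data were seen, under which Traf2 and Traf3 joined Il17ra and Il17rc among genes with all TPPU values lower (4 of 8, against 19.3% of all genes). The median of the 8 ran from -0.15 to -0.03 with 1 library left out. Over all genes, sample quality weights (0.191 for control replicate 3 and 3.84 for control replicate 1) gave 89 higher and 80 lower, removal of the GC trend 1 lower, and leaving out control replicate 3 with TPPU replicate 1 gave 29 higher and 10 lower. Removal of the GC trend moved Traf5 from -0.03 to -0.14. With 1 library left out the counts ran from 0 to 5 higher and from 0 to 1 lower, the highest without TPPU replicate 1. The cause was not tested. No scaling moved the median of all genes beyond -0.01 to 0.02. Deviations of same-numbered libraries correlated at -0.301, 0.154 and -0.399 for numbers 1, 2 and 3. With 3 libraries per group that also differ in quality, these values cannot tell whether the samples were paired. With the replicate block 0 genes were higher and 0 lower. Il17rb and Il17rd rest on at most 4 fragments per library, and depth limits both.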

Other observations

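Within-library ratios of the TRAF genes cancel the scaling of a library. The ratio of Traf1 to Traf2 was 1.32, 1.2 and 1.32 in control replicates 1, 2 and 3 and 1.37, 1.34 and 1.35 in TPPU replicates 1, 2 and 3, so all TPPU values were higher. The exact permutation p was 0.1 (two-sided, n = 3 each), the smallest that 3 against 3 can give, and 0.4 adjusted over the 6 ratios computed. The ratio of Traf6 to Traf3 was 0.711 in control replicate 3 and 1.19 to 1.6 in the other libraries (exact permutation p = 0.4, n = 3 each, and 0.5 adjusted over 6).

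Among the macrophage markers, Adgre1, which encodes the surface protein F4/80, measured 234, 242 and 183 FPKM in control and 270, 271 and 266 FPKM with TPPU, a log2 change of 0.3 (limma SE 0.11, adjusted p = 0.566). Lyz2, which encodes lysozyme, measured 236, 238 and 307 FPKM in control and 336, 313 and 329 FPKM with TPPU, a log2 change of 0.34 (limma SE 0.11, adjusted p = 0.562). Lyz2 passed without control replicate 3 and TPPU replicate 1, an alternative added after the data were seen (log2 change 0.44, limma adjusted p = 0.0244), and with sample quality weights (adjusted p = 0.0181). Csf1r, a growth factor receptor gene, measured 43.2 ± 5.43 and 48.8 ± 2.24 FPKM and Cd68, a lysosomal marker gene, 1001 ± 90.6 and 936 ± 39.5 FPKM, with groups that overlapped. All TPPU values were higher in 2 of the 9 markers tested and in 7.48% of all tested genes.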
